A study of Mus musculus with 4 samples.

Results

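Sphingosine-1-phosphate (S1P) and lysophosphatidic acid (LPA) are lysophospholipids that act outside the cell through G protein-coupled receptors, and the genes described here are the 5 S1P receptor genes (S1pr1 to S1pr5), the sphingosine kinase genes Sphk1 and Sphk2, the LPA receptor genes Lpar1 and Lpar4, and Enpp2, which encodes the LPA-producing enzyme autotaxin. These 10 genes were picked by name with earlier results of the same comparison known, and the probe set that stood for each gene was chosen by its mean level over the arrays, the highest being taken. Of the 10 genes, 9 were named alone by a probe set, 1 probe set each, out of 18820 genes measured in this way. Enpp2 was not analysed here, because no probe set was paired with its name. A further probe set named both Sphk2 and Dbp and was not used. Because the list was drawn up with this comparison in view, the differences of its members are given as a description of the arrays, with intervals but without p-values.

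S1P is made inside cells by the sphingosine kinases, leaves them through transporters such as Spns2, and is removed by phosphatases and a lyase. LPA is largely made outside cells by autotaxin and is removed by lipid phosphate phosphatases. The receptors couple to different G proteins, so that the receptor set of a cell shapes how it moves, contracts and holds its junctions. S1pr1 is best known from endothelium and lymphocytes, S1pr2 and S1pr3 from vascular smooth muscle and other mesenchymal cells, S1pr4 from blood cells, and S1pr5 from oligodendrocytes and natural killer cells.

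Metanephric kidneys of mouse embryos at about gestation day 14, of the line B6.129P2-Lgr5tm1(cre/ERT2)Cle/J, were grown in culture for about 10 days, and cells were sorted by flow cytometry into a GFP-high fraction, which the sample labels call positive, and a GFP-negative fraction. Both fractions come from kidneys with the reporter, in which EGFP and a tamoxifen-inducible Cre are placed under the control of Lgr5, a receptor gene of stem cells in other organs. No tamoxifen or other agent is named in the labels. The 2 GFP-high arrays are titled kidneys A and B and the 2 GFP-negative arrays kidneys B and D, and they are called high-A, high-B, negative-B and negative-D here. The labels do not state whether a letter stands for 1 organ, a litter or a pool. Errors and p-values therefore measure only how far these arrays lie apart, and that spread may be technical.

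The values are deposited log2 expression levels, 1 per probe set, and a difference of 1 on this scale is a 2-fold difference. Lgr5, which checks the sort, was at 10.43 and 10.34 on high-A and high-B and at 6.39 and 6.31 on negative-B and negative-D, 16.4-fold higher in GFP-high cells (limma adjusted p = 1.106e-05). Array medians lay between 5.07 and 5.24. The lowest was that of high-A. As a reference for background, the 95th percentile of the mean levels of 986 olfactory receptor genes was 4.24. In the fit of limma over all genes, 19.2% of genes passed the threshold (Benjamini-Hochberg adjusted p below 0.05), 11.2% of them lower and 8.08% higher in GFP-high cells, as shares of all genes. After centring the arrays on their medians, the split of the genes past the threshold turned from 2100 lower and 1520 higher to 1889 lower and 2122 higher.

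The S1P receptor genes S1pr1, S1pr2 and S1pr3 were lower in GFP-high cells, S1pr3 by far the most. So were the kinase gene Sphk1 and the LPA receptor gene Lpar4. S1pr3 stood at 6.81% of its level in GFP-negative cells, while S1pr1, S1pr2, Lpar4 and Sphk1 stood at 40.7% to 56.5%. In sorted bulk RNA fewer cells of a type and less RNA per cell cannot be told apart. The kinase gene Sphk2 and the LPA receptor gene Lpar1 had differences close to 0. S1pr4 and S1pr5 lay around the background reference in both fractions.

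**Figure D1:**
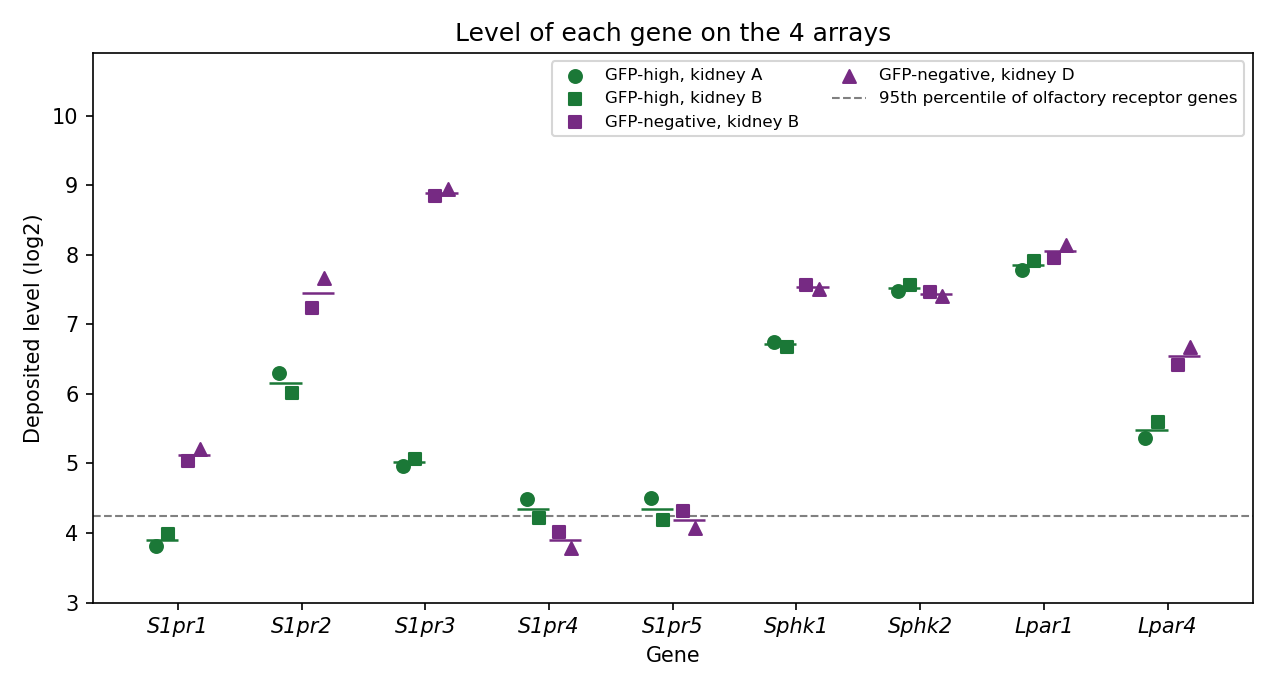
Deposited log2 level (vertical axis) of each measured gene on each of the 4 arrays, in green for GFP-high and purple for GFP-negative, with the mean of each group as a short line and the 95th percentile of olfactory receptor genes, 4.24, as a dashed line. S1pr3 falls into 2 groups near 5 and 9, whereas the symbols of S1pr5 overlap around the dashed line.

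S1pr3 encodes an S1P receptor that couples to Gi, Gq and the G12/13 class. Its log2 level was 4.96 and 5.07 in GFP-high cells of kidneys A and B and 8.84 and 8.95 in GFP-negative cells of kidneys B and D. Both GFP-high arrays were low and both GFP-negative arrays high, with a gap of 3.77 between the groups and a spread within each group of at most 0.0783 (SD, n = 2). The mean difference, GFP-high minus GFP-negative, was -3.88 (SE 0.125, 95% interval -4.17 to -3.58), a 14.7-fold lower level with an interval of 12.0-fold to 18.0-fold. Counted from the most negative difference, S1pr3 held place 23 among the 18820 genes. All 4 arrays lay above the background reference of 4.24. The GFP-high values were below the medians of their arrays, 5.07 for high-A and 5.19 for high-B. Whether this remaining signal came from transcripts of GFP-high cells was not tested.

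The 250 bases before the RefSeq start of S1pr3 are shown with those of S1pr2 and Lpar4, the other receptor genes with at least 2-fold lower levels for which the table held a sequence. They are printed in the direction of transcription from build GRCm38.p6, at chr13:51408368-51408617 (plus strand) for S1pr3, chr9:20976794-20977043 (minus strand) for S1pr2 and chrX:106920375-106920624 (plus strand) for Lpar4. Capitals mark matches, on either strand, to 6 motifs searched, which were the GC box (GGGCGG), the TATA box (TATAAA), the CCAAT box (CCAAT), the E-box bound by Snail and Zeb factors (CAGGTG), the TEAD motif (CATTCC) and the AP-1 motif (TGANTCA).
S1pr3: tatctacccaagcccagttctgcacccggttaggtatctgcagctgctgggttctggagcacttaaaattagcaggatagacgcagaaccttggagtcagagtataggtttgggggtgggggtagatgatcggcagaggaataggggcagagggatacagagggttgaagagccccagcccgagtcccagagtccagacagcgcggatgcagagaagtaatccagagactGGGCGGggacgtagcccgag
S1pr2: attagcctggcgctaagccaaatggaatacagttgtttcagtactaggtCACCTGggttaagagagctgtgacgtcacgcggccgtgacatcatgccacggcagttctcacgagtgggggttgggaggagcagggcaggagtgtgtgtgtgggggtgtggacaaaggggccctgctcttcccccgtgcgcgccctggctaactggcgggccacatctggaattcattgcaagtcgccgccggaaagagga
Lpar4: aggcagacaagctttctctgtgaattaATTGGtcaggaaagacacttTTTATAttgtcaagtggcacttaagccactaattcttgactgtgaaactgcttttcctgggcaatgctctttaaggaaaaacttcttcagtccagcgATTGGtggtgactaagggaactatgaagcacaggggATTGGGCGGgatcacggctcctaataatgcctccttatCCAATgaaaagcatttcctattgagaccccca
In these windows S1pr3 held 1 GC box just before the start, and S1pr2 held 1 E-box. Lpar4 held 4 CCAAT boxes, 1 TATA box and 1 GC box, which overlaps the third of the CCAAT boxes. Among 32851 windows of the same length before RefSeq starts, 32.7% held a GC box, 33.8% a CCAAT box, 17.2% the E-box, 12.4% the TATA box, 12.6% the TEAD motif and 6.75% the AP-1 motif. The 3 windows thus shared no motif among all of them, and a match describes letters only.

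S1pr2, whose product couples mainly to G12/13, was the next in size among the S1P receptor genes. Its level was 6.30 and 6.01 in GFP-high cells of kidneys A and B and 7.24 and 7.67 in GFP-negative cells of kidneys B and D. Both GFP-high values were below both GFP-negative values, with a gap of 0.93, although the spread within the groups (SD 0.206 and 0.307, n = 2 each) was the widest among the receptor genes with lower levels. The difference was -1.30 (SE 0.182, 95% interval -1.73 to -0.87), 2.46-fold lower. With 1 array left out, the difference was -1.44 without high-A, -1.15 without high-B, -1.51 without negative-B and -1.08 without negative-D.

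S1pr1, the Gi-coupled receptor of endothelium and lymphocytes, was measured at 3.82 and 3.99 in GFP-high cells and at 5.03 and 5.21 in GFP-negative cells of the same order of kidneys. The groups did not overlap. Both GFP-high values were under the background reference of 4.24, while both GFP-negative values were above it. The difference was -1.21 (SE 0.135, 95% interval -1.53 to -0.90), 2.32-fold lower. Set against the background reference itself, the GFP-negative mean of 5.12 was 1.84-fold higher, so that the fold depends on how far below the reference a value can still be read.

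The other S1P receptor genes gave no such separation. S1pr4 was at 4.49 and 4.21 in GFP-high cells of kidneys A and B and at 4.01 and 3.79 in GFP-negative cells of kidneys B and D, and only the first of these values was above the background reference. The groups did not overlap, by a gap of 0.20, and the difference was 0.45 (SE 0.151, 95% interval 0.09 to 0.81), which was not past the threshold of the fit over all genes. S1pr5 was at 4.50 and 4.18 in GFP-high cells and 4.31 and 4.07 in GFP-negative cells, with the groups overlapping, and 2 of its 4 values were above the reference. Its difference was 0.15 (SE 0.159, 95% interval -0.22 to 0.53). A level around background on these arrays is a limit of measurement and does not show that the transcripts were absent.

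The kinase genes differed from each other. Sphk1, which encodes the inducible, mainly cytosolic sphingosine kinase, was at 6.75 and 6.68 in GFP-high cells and 7.56 and 7.51 in GFP-negative cells. Its groups were separated by a gap of 0.76 with SDs of 0.0554 and 0.0324 (n = 2 each). The difference was -0.82 (SE 0.120, 95% interval -1.11 to -0.54), 1.77-fold lower. With 1 array left out, it was -0.86 without high-A, -0.78 without high-B, -0.80 without negative-B and -0.85 without negative-D. In these fits the difference was about as large as with all arrays, and 1 residual degree of freedom per gene was left.

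Sphk2, the kinase found also in the nucleus and mitochondria, was at 7.48 and 7.57 in GFP-high cells and 7.46 and 7.40 in GFP-negative cells. The GFP-high values were the higher ones by a gap of only 0.02. Its difference was 0.09 (SE 0.121, 95% interval -0.19 to 0.38), an interval that includes 0. The probe set that named Sphk2 together with Dbp, a circadian transcription factor gene, had a difference of -0.32, from 6.98 and 7.34 in GFP-high cells to 7.44 and 7.51 in GFP-negative cells, and cannot be assigned to either gene.

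The LPA receptor genes behaved differently as well. Lpar4, a receptor gene of the P2Y-related branch, was at 5.36 and 5.60 in GFP-high cells of kidneys A and B and 6.42 and 6.68 in GFP-negative cells of kidneys B and D. The groups were separated by a gap of 0.82. The difference was -1.07 (SE 0.150, 95% interval -1.43 to -0.72), 2.10-fold lower. With 1 array left out, it was -0.95 without high-A, -1.19 without high-B, -1.2 without negative-B and -0.95 without negative-D. Lpar1, the widely expressed LPA receptor gene of the same branch as the S1P receptors, was at 7.78 and 7.91 in GFP-high cells and 7.96 and 8.14 in GFP-negative cells. Its groups were separated by a gap of 0.05 only, and its difference was -0.21 (SE 0.131, 95% interval -0.51 to 0.10).

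**Figure D2:**
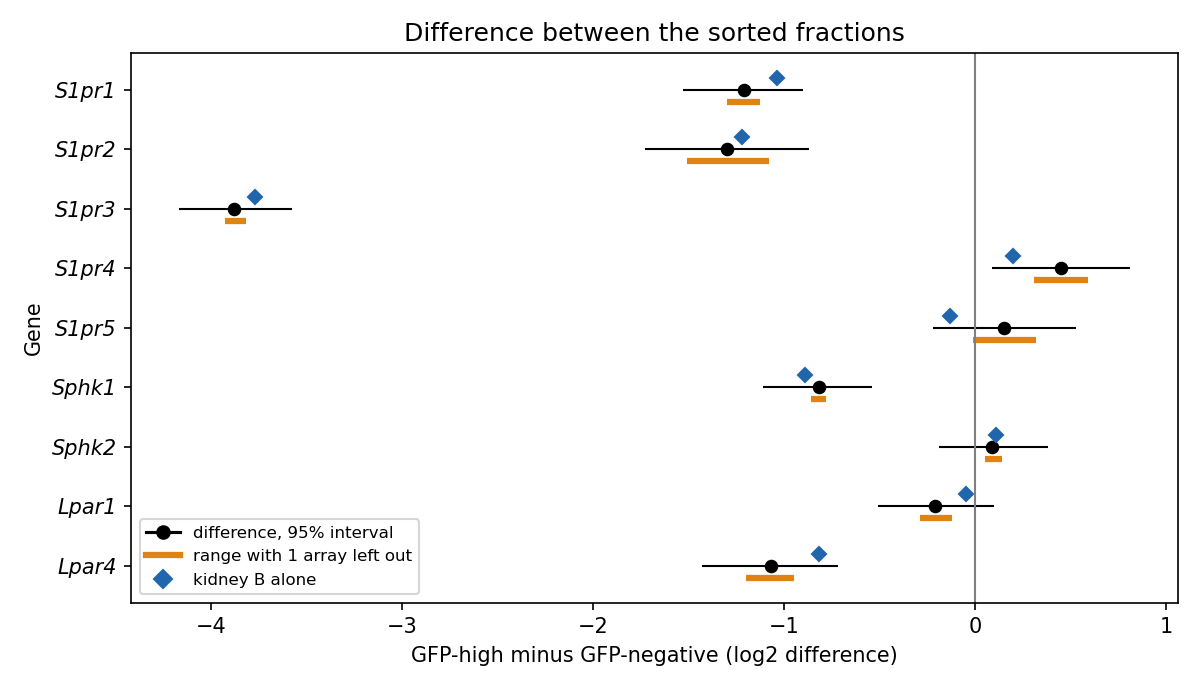
Log2 difference, GFP-high minus GFP-negative (horizontal axis), for each measured gene, with its 95% interval from limma (black), the range of the difference when 1 of the 4 arrays is left out (orange) and the difference between the 2 arrays of kidney B (blue diamond). S1pr3 stands at -3.88, apart from S1pr1, S1pr2, Lpar4 and Sphk1 between -1.30 and -0.82, and the intervals of S1pr5, Sphk2 and Lpar1 include 0.

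Counted together, 5 of the 9 measured members lay past the threshold of the fit, 5 of them lower in GFP-high cells and 0 higher, beside the 11.2% of all genes that were lower and the 8.08% that were higher. The members were chosen with this comparison known, so nothing is read from that count. Without overlap between the groups, 6 members were lower and 2 higher, where 24.0% of all genes were lower and 33.2% higher without overlap. The median difference of the 9 members was -0.82, and that of all genes 0.05, with 5% of all genes below -1.19. With 1 array left out in turn, the difference of S1pr3 lay between -3.93 and -3.82 and that of S1pr1 between -1.30 and -1.13. Fewer members then lay past the threshold, and nothing is read from that either.

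**Figure D3:**
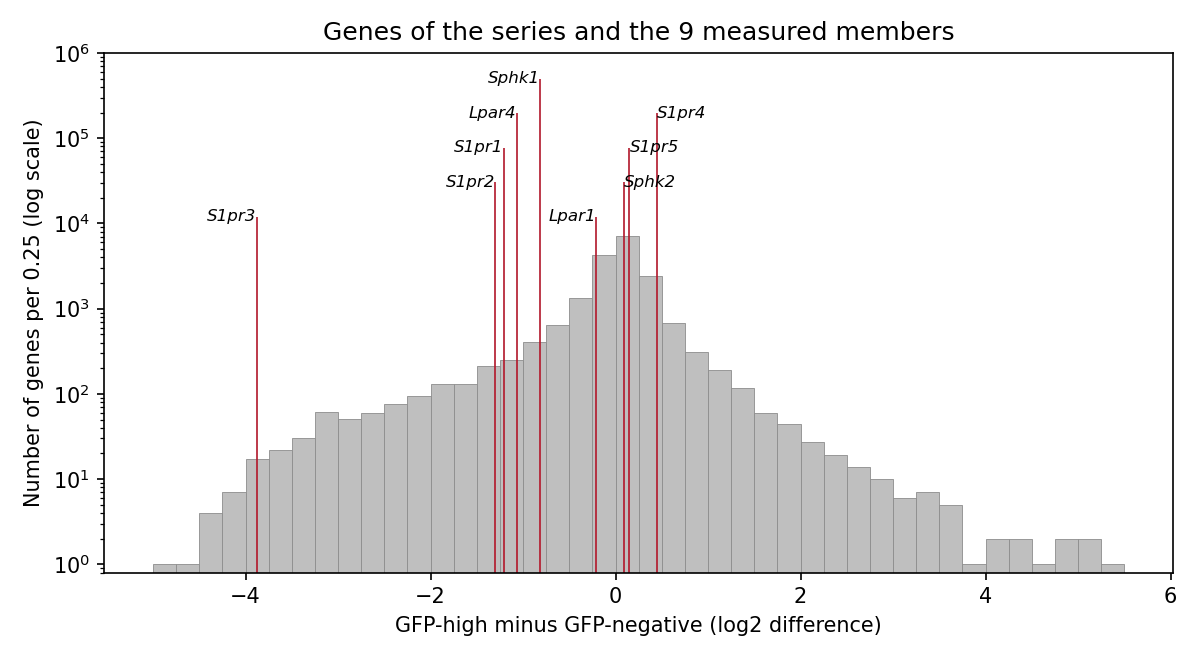
Number of genes, on a log scale, by difference in log2 level between the fractions (GFP-high minus GFP-negative, in steps of 0.25), over all 18820 genes (grey), with the difference of each measured member as a red line whose height has no meaning. S1pr3 at -3.88 lies in the far lower tail, the 4 members between -1.30 and -0.82 in the lower shoulder, and the rest between Lpar1 at -0.21 and S1pr4 at 0.45, on either side of the median of 0.05.

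Kidney B gave 1 array to each fraction and allows a comparison within a single letter, with no replicate. There S1pr3 was 13.6-fold, S1pr2 2.34-fold, S1pr1 2.06-fold, Sphk1 1.85-fold and Lpar4 1.77-fold lower in GFP-high cells. Because the groups of these 5 genes do not overlap, their signs could not differ from those of the comparison over all arrays. S1pr5 differed by -0.13, Lpar1 by -0.05, Sphk2 by 0.11 and S1pr4 by 0.20. S1pr5, the only member with overlapping groups, alone had the other sign.

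Over the 4 arrays, the genes whose pattern came nearest to that of S1pr3 were Ldb2, Lama4, Snai2, Islr and Col6a3, with distances of 0.0776 to 0.239 (Euclidean distance between log2 levels, each gene centred on its own mean). Ldb2, which encodes a LIM domain-binding cofactor, was 14.0-fold lower, with means of 5.69 ± 0.091 for the GFP-high and 9.50 ± 0.119 for the GFP-negative arrays (SD, n = 2). Lama4, a laminin chain gene, was 14.2-fold lower, Snai2, a zinc finger transcription factor gene of mesenchymal cells, 16.9-fold, Islr 17.2-fold and Col6a3, a collagen VI chain gene, 12.5-fold lower. For S1pr4, the member with the largest positive difference, the nearest genes were Olfr651, Vmn1r202, Vmn1r192, Cyp2b10 and Ddx19b, with distances of 0.0389 to 0.055. The first of these encodes an olfactory receptor and the next 2 encode vomeronasal receptors. Of these 5 genes, Ddx19b alone had all 4 values above the background reference.

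Marker genes of several cell types differed between the fractions. All 10 stroma markers were lower in GFP-high cells, with a median difference of -2.97, and their summed level (2 to the power of the log2 values) was 983 to 1020 on the GFP-high arrays and 8300 to 8910 on the GFP-negative arrays. Of these 10, 1 (Foxd1) was under the background reference on both GFP-high arrays. Of 7 smooth muscle and pericyte markers 5 were lower and 1 (Notch3) higher, and none was under the reference on both GFP-high arrays. Their summed levels were 812 to 1610 against 3760 to 7320. The brightest gene weighs most in them, which was Notch3 on high-A (8.47) and Acta2 on high-B (10.02), negative-B (12.31) and negative-D (11.53). Nephron progenitor markers (7 of 7 lower, summed level 432 to 547 against 5710 to 6010, Meox1 under the reference in GFP-high cells) and podocyte markers (4 of 4 measured lower, 169 to 404 against 2350 to 3520, Synpo under it) were likewise lower. Wt1 (10.85 on negative-B and 10.55 on negative-D) and Podxl (10.52 and 9.54) weigh most in the podocyte sum.

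For S1pr1, the endothelial markers stand beside the result. Of 10, 8 were lower and 0 higher, with a summed level of 248 on both GFP-high arrays and 646 to 851 on the GFP-negative arrays. Kdr, Tek, Plvap and Tie1 were under the background reference on both GFP-high arrays, and Cdh5, the endothelial cadherin gene, was at 4.54 and 4.44 there against 7.05 and 7.61. Of 10 leukocyte markers, which bear on S1pr1 and S1pr4, 1 (Cd68) was lower and 9 did not pass, with a median difference of -0.16. The summed level was 344 to 444 against 505 to 514. Cd68 was the brightest of them, at 7.43 and 7.70 against 8.16 and 8.06, and weighs most in that sum. Adgre1 and Cd52 were under the reference on all 4 arrays. In the other direction, 6 of 7 epithelial markers and 5 of 5 markers of the thick ascending limb were higher in GFP-high cells. Of 4 measured markers of neurons and glia, 1 (Elavl4) was lower. The part of these cell types in the members' differences was not tested.

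Beyond the members, 74 of 80 further genes in and around lysophospholipid signalling were measured. They include related lipid receptor genes and broader response genes such as Acta2 and Tagln. In the same fit 18 of the 74 passed the threshold, 10 lower and 8 higher in GFP-high cells. That is 24.3% of them, beside 19.2% of all genes, and their median difference was 0.01 beside 0.05. Of the 18 genes, 6 (Lpar2, Sgpp2, Cerk, Pla1a, Plpp1 and Enpp3) also passed in all 4 fits with an array removed.

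**Figure D4:**
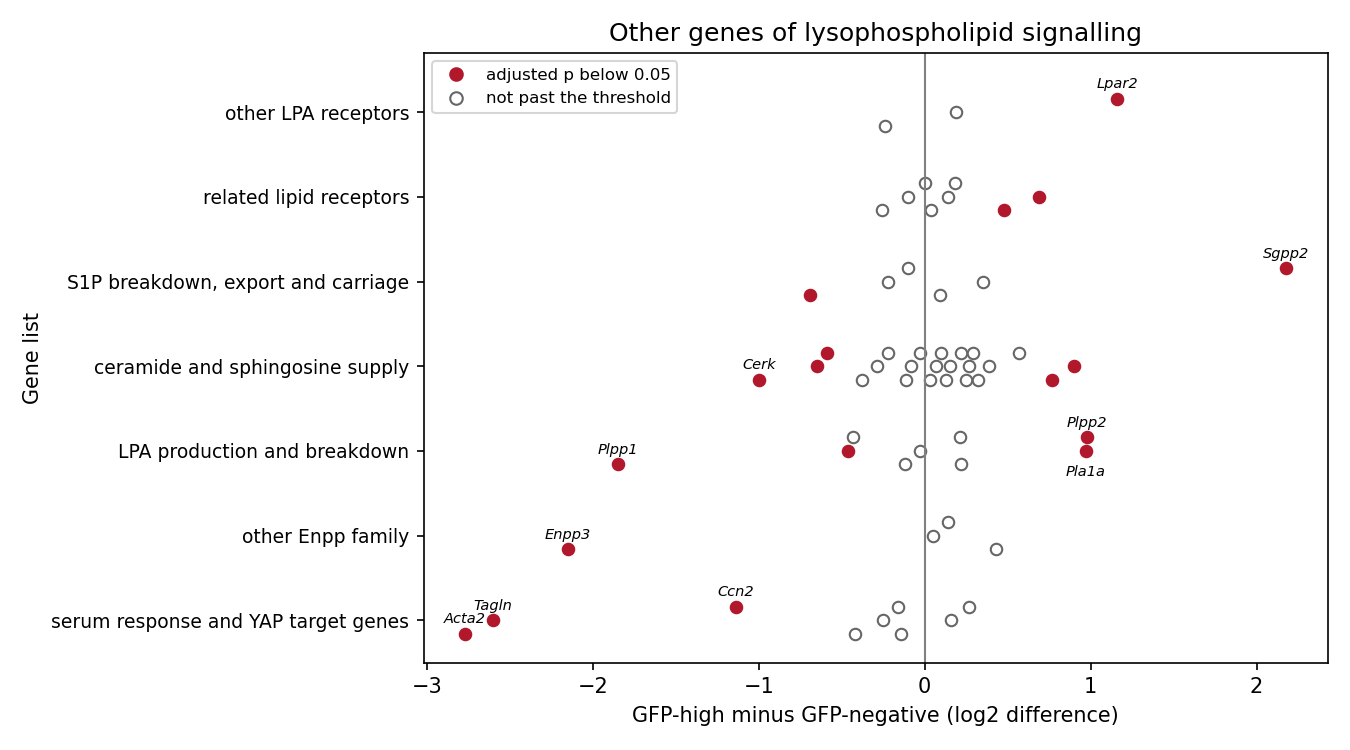
Log2 difference, GFP-high minus GFP-negative (horizontal axis), of further genes in and around lysophospholipid signalling, 1 circle per gene, in 7 lists (vertical axis, where the vertical offset within a list has no meaning). Filled circles mark the 18 genes with limma adjusted p below 0.05, from Acta2 at -2.77 to Sgpp2 at 2.18.

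Among the other LPA receptor genes, Lpar2 was higher in GFP-high cells and 2 of 3 did not pass. Lpar2, whose product couples to Gi, Gq and G12/13, was at 7.18 and 7.41 in GFP-high cells of kidneys A and B and at 6.15 and 6.12 in GFP-negative cells of kidneys B and D. Every GFP-high value was above both GFP-negative values. Its difference was 1.16 (SE 0.133, limma adjusted p = 0.0008968), 2.24-fold higher, the opposite sign of Lpar4. Lpar6 was at 8.82 against 9.06 and Lpar3 at 4.05 against 3.86, under the background reference on all 4 arrays. Of 8 related lipid receptor genes, Gpr3 (log2 difference 0.69, limma adjusted p = 0.01566) and Gpr6 (0.48, adjusted p = 0.02876) were higher, 0 lower and 6 did not pass. Both missed the threshold in each fit with an array removed (adjusted p 0.08027 to 0.1739 for Gpr3 and 0.12 to 0.1794 for Gpr6), and Gpr6 also with the label number as a block (0.07231), and 7 of the 8 genes, Gpr6 among them, were under the reference on all arrays.

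Of 6 genes for removing, exporting and carrying S1P, Sgpp2 was higher, Spns2 lower, and 4 did not pass. Sgpp2, an S1P phosphatase gene, was at 10.56 and 10.39 in GFP-high cells and 8.12 and 8.47 in GFP-negative cells, 4.53-fold higher, a log2 difference of 2.18 with SE 0.157 (limma adjusted p = 0.0001036). Its GFP-high values were 1.92 or more above the GFP-negative ones. Spns2, the S1P exporter gene, was at 4.88 and 5.27 against 5.86 and 5.67, 1.61-fold lower (limma adjusted p = 0.02533), but missed the threshold in each fit with an array removed (adjusted p 0.07001 to 0.242) or with the label number as a block (0.05501). Sgpp1, the other S1P phosphatase gene, was at 7.71 against 7.92, and Sgpl1, the S1P lyase gene, at 9.38 against 9.03 (limma adjusted p = 0.1113).

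In the supply of ceramide and sphingosine, 3 of 23 measured genes were lower, 2 higher and 18 did not pass. The share past the threshold was 21.7%, near the 19.2% of all genes. Cerk, the ceramide kinase gene, was 2.00-fold lower at 6.09 against 7.10 (limma adjusted p = 0.001453). Degs1, which makes the double bond of ceramide, and the ceramide synthase gene Cers6 were 1.57-fold and 1.51-fold lower. The sphingomyelin synthase genes Sgms2 and Sgms1 were 1.87-fold and 1.70-fold higher. In each fit with an array removed, Degs1 (limma adjusted p 0.06999 to 0.1145), Cers6 (0.0887 to 0.1509) and Sgms1 (0.05478 to 0.09915) missed the threshold, as did Sgms2 without high-A (0.05062) or high-B (0.05253).

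The list for LPA production and breakdown went both ways, with 2 of 9 genes lower, 2 higher and 5 not passing. It was drawn broadly and holds genes, Pla1a among them, that are not specific to LPA. The lipid phosphate phosphatase genes, whose products remove LPA and S1P at the cell surface, moved apart. Plpp1 was at 6.09 and 6.39 in GFP-high cells and 8.23 and 7.96 in GFP-negative cells, 3.61-fold lower (log2 difference -1.85, SE 0.159, limma adjusted p = 0.0002231). Plpp2 was 1.97-fold higher at 10.61 against 9.63 (limma adjusted p = 0.001899), but missed the threshold without high-A (0.05475) or high-B (0.06296). Plpp3, at 9.74 against 9.77, did not pass. Pla1a, a phospholipase gene, was 1.96-fold higher at 5.60 against 4.63 (limma adjusted p = 0.001639), and Liph was lower at 3.70 against 4.16, both group means under the background reference (limma adjusted p = 0.04962; 0.1248 to 0.2764 with 1 array left out, 0.1209 with median centring and 0.1068 with the label number as a block).

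Of 4 measured Enpp family genes besides Enpp2, Enpp3 was 4.45-fold lower at 3.79 and 3.90 against 5.79 and 6.20 (limma adjusted p = 0.0001303), its GFP-high values being under the background reference, and 3 did not pass. Among 9 measured serum response and YAP target genes 3 were lower, 0 higher and 6 did not pass. Ccn2, a matricellular protein gene, was 2.20-fold lower at 9.01 against 10.15 (limma adjusted p = 0.001588), with adjusted p of 0.05381 without negative-B and 0.05131 without negative-D. Acta2 and Tagln, both also on the smooth muscle list above, were 6.80-fold and 6.07-fold lower (limma adjusted p = 0.008799 and 0.008745), with SDs of 1.22 and 0.769 in GFP-high cells. The log2 difference of Acta2 (-2.77) was -1.90 without high-A and -3.63 without high-B, and that of Tagln (-2.60) was -1.90 without negative-B and -3.30 without negative-D. Among the fits with an array removed, Acta2 passed only without high-B (adjusted p = 0.03585, and 0.09987 to 0.1846 in the others) and Tagln only without negative-D (0.03522, and 0.1035 to 0.2117 in the others). With an intensity trend and a robust prior neither passed (0.1464 and 0.06904). Ccn1 and Srf, at 11.77 against 11.93 and 9.74 against 9.88, did not pass.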

How the data were processed

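RNA of flow-sorted kidney cells was measured on 4 Affymetrix arrays, grouped by the sample labels. The analysis starts from log2 values as deposited, and per the labels' protocols the RNA was column-purified and biotin-labelled with a whole-transcript kit. The sources used here do not state the background correction, summary or scaling between arrays, although 2 to the power of every value was a multiple of 0.1 within 0.001. Precision is limited by having 2 arrays per group.

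Genes were named by the platform annotation. Of 35556 probe sets, 21218 named 1 gene, 1881 several and 12457 were unnamed here. The probe set with the highest mean stood for each of 18820 genes. Differences were fitted with limma 3.58.1 in R 4.3.3 (group as the only term, two-sided, Benjamini-Hochberg over all genes, threshold 0.05, no filter, 2 residual and 5.11 prior degrees of freedom), which was tested on simulated data. The members, gene lists, tests and alternatives were chosen with earlier results of these data known, and the motifs and the background reference after the levels had been seen. The text names every member, every further pathway gene past the threshold and the 5 nearest patterns of the members with the largest difference in each direction. One further list is part of the counts over all pathway genes and is not reported here. Further genes named as not passing were chosen after their values were seen. Promoter sequences are from RefSeq (GRCm38.p6). Of the 9 members, 8 had an entry.

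The label numbers 1 and 2 join different kidney letters, and deviations of same-numbered arrays from their group means had a correlation of -0.198 over all genes. The fit has no block. It therefore does not use that high-B and negative-B share kidney B, and a block that joins them was run as an alternative.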

Additional observations from a re-analysis of the deposited data

How the results depend on the processing

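The 9 members kept the sign of their difference under the 7 alternatives other than leaving out arrays or dim genes. These were the replicate block, the crossed block, quantile and median normalization, other probe set choices and a trended prior. Their side of the threshold stayed too. Nothing is read from that, since the members were listed with this comparison known. Only quantile and median normalization could change the size or sign of a member's difference. Each member has 1 probe set, and the blocks and the prior change only the error. With the label number as a replicate block 2959 genes, 5 members and 15 further pathway genes passed, and with the pairing crossed so that the arrays of kidney B go together 4102, 5 and 21. Among genes at or above the median level alone, 2385 passed, and 3 of the 5 members that were then still tested. With 1 array left out, 1123 to 1749 genes, 2 to 4 members and 7 to 9 further pathway genes passed. The difference of S1pr5 (0.15) then ranged from -0.01, without high-A, to 0.32, without high-B. These fits have fewer samples or fewer genes by construction. Signal near background limits S1pr1 in GFP-high cells and S1pr4 and S1pr5 throughout.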

Other observations

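The windows of 250 bases before the 15 RefSeq starts of the 8 members with an entry differed widely in base composition. The single window of S1pr4, a gene around background here, had a GC content of 38.8% and 0 CpG dinucleotides, and that of S1pr5 had 69.2% and 22. Over all 32851 windows the medians were 52.4% and 6. The windows of S1pr3 and S1pr2 had 56.4% and 59.2%, with 9 and 14 CpG dinucleotides, and that of Lpar4 43.6% with 3. Sphk1 has 5 annotated starts, with 51.6% to 58.0%, Lpar1 3, with 41.6% to 70.0%, and Sphk2 2, with 64.0% and 67.6%. Array levels do not tell which start was used.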
